A study of Oryza sativa with 12 samples.

Results

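The genes described here are 38 expansin and XTH genes of rice, the wall-loosening proteins among the genes whose RNA was sequenced from the abscission zone, the layer between pedicel and spikelet where the grain is later shed. They were chosen by locus ID as members of these families, with earlier results of these data known, and comprise 7 alpha-expansins, 3 beta-expansins and 28 xyloglucan endotransglucosylase/hydrolases (XTH). All 38 IDs were found among the 55986 IDs of the table that compares the mutant ossh1 with its wild type WT. Only 16 of them were found among the 11688 IDs of the table that compares the mutant oscct with its wild type CK. The 4 groups were ossh1, WT, oscct and CK, with 3 libraries each, taken on the day of flowering from pools of 5 field-grown plants. The labels call ossh1 and oscct mutants and the other groups wild types, and the design text writes the mutants as sh1 and oscct22. The sources used here do not give the kind of mutation, the number of lines behind each mutant or the variety. The labels name 2 growing places without tying any library to one of them, so line, growing place and mutation cannot be told apart.

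Expansins are small wall proteins that loosen the contact between cellulose and other wall polymers without cutting them, and are most active in acid walls. Alpha-expansins are found in all land plants, while beta-expansins form a large family in grasses. XTH enzymes cut xyloglucan, a polymer that coats and tethers cellulose, and either join the cut end to another chain or release it. Members of these families are known for roles in cell growth, and in abscission zones of other plants some of them are active while cells separate.

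The ossh1 libraries held from 27044341 to 28600944 counts and the WT libraries from 30382846 to 32055561, so equal expression gives somewhat lower raw counts in ossh1. Values are therefore given as counts in each library, and fold changes and overlap between groups after scaling for depth. The oscct table lists only rows that differ between its groups, and a missing ID is one that was not listed, not one without expression. The listed values summed to between 12526152 and 12812857 counts in oscct and between 12943437 and 13318397 in CK, which are not the depths of these libraries. Locus IDs are not paired with gene names in the files, and 0 of the 38 IDs matched the reference table, so marker genes of the tissue and the mutated genes were not analysed here. Whole pieces of tissue were sequenced, so fewer cells of a type and less RNA per cell cannot be told apart in any value below.

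Among the alpha-expansins, LOC_Os01g60770 rose in both mutants. It had 303, 297 and 291 counts in the ossh1 libraries, against 203, 183 and 163 in WT. Every ossh1 library lay above every WT library. This is a log2 fold change of 0.97 (SE 0.11, edgeR adjusted p = 1.37e-09). Here and below, adjusted p-values come from the quasi-likelihood test of edgeR and are corrected by the Benjamini-Hochberg method over all genes tested. In the other comparison it had 83, 83 and 80 counts in oscct and 18, 15 and 14 in CK, again without overlap, a log2 fold change of 2.27 (SE 0.18). Groups did not overlap in 98.3% of the IDs tested in that table. Adjusted p-values are not given for oscct, because its rows had been selected for a difference between the same groups. Of the 11518 IDs tested there, 99.2% passed an adjusted p of 0.05 in edgeR.

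LOC_Os03g60720, a second alpha-expansin, fell in ossh1 and rose in oscct. Its counts were 34, 34 and 36 in ossh1, against 102, 97 and 107 in WT. That is a log2 fold change of -1.28 (SE 0.21, edgeR adjusted p = 1.67e-06), with both groups tight and far apart. In oscct it had 40, 49 and 44 counts, against 11, 14 and 10 in CK, a log2 fold change of 1.80 (SE 0.23). The oscct libraries were all above the CK libraries, although only oscct reached the count filter in all its libraries, so the gene could be tested there because it was higher in oscct.

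LOC_Os04g15840 was nearly silent except in CK. It had 0 counts in all 3 ossh1 libraries and 2, 0 and 0 in WT, too few to be tested. In the other table it was at 0 in all 3 oscct libraries, against 16, 10 and 11 counts in CK. Against 3 counts over the oscct libraries together, this alpha-expansin was at least 13.3-fold lower in oscct, a bound that covers counting error only. It did not meet the filter on low counts of that comparison.

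The remaining 4 alpha-expansins gave no call in ossh1 and were not listed for oscct. LOC_Os04g49410 had 180, 163 and 154 counts in ossh1, against 215, 187 and 240 in WT, a log2 fold change of -0.10 (SE 0.13). After scaling, these groups overlapped. LOC_Os05g39990 had 18, 15 and 22 counts in ossh1, against 6, 16 and 14 in WT. Its scaled values did not overlap, and the log2 fold change of 0.87 (SE 0.43) did not pass the test (edgeR adjusted p = 0.0806). It was 0.55 without WT replicate 1 (edgeR adjusted p = 0.328), and the gene reached the count filter through ossh1 alone. LOC_Os02g51040 had 12, 12 and 20 counts in ossh1, against 20, 11 and 29 in WT, with overlapping groups and a log2 fold change of -0.17 (SE 0.41). LOC_Os03g21820 had 11, 6 and 9 counts in ossh1, against 10, 7 and 2 in WT, and was below the filter.

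Beta-expansins lay side by side on chromosome 10, as LOC_Os10g40710, LOC_Os10g40720 and LOC_Os10g40730, and did not move as one. LOC_Os10g40720 rose in both mutants. It had 258, 270 and 242 counts in ossh1 and 133, 148 and 168 in WT, a log2 fold change of 1.05 (SE 0.12, edgeR adjusted p = 1.23e-09). Its counts were 55, 65 and 57 in oscct, against 13, 8 and 9 in CK, a log2 fold change of 2.44 (SE 0.23). Neither pair of groups overlapped. In oscct this gene reached the count filter in all libraries of the mutant and in 1 of CK, so it could be tested there only because it was higher in oscct.

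LOC_Os10g40730, its neighbour, fell in oscct. It had 27, 26 and 26 counts in oscct, against 110, 161 and 161 in CK, a log2 fold change of -2.56 (SE 0.19). In ossh1 the same gene had 228, 164 and 199 counts, against 239, 192 and 190 in WT, with overlapping groups. That change, 0.20 on the log2 scale (SE 0.13), did not pass the test (edgeR adjusted p = 0.196). LOC_Os10g40710 had 0, 1 and 0 counts in ossh1, against 1, 0 and 0 in WT, and was not listed for oscct. How reads that match more than 1 gene were assigned is not stated in the sources used here, and sequences were not compared. The split between neighbours is therefore uncertain, here and for the neighbouring XTH genes below.

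**Figure D1:**
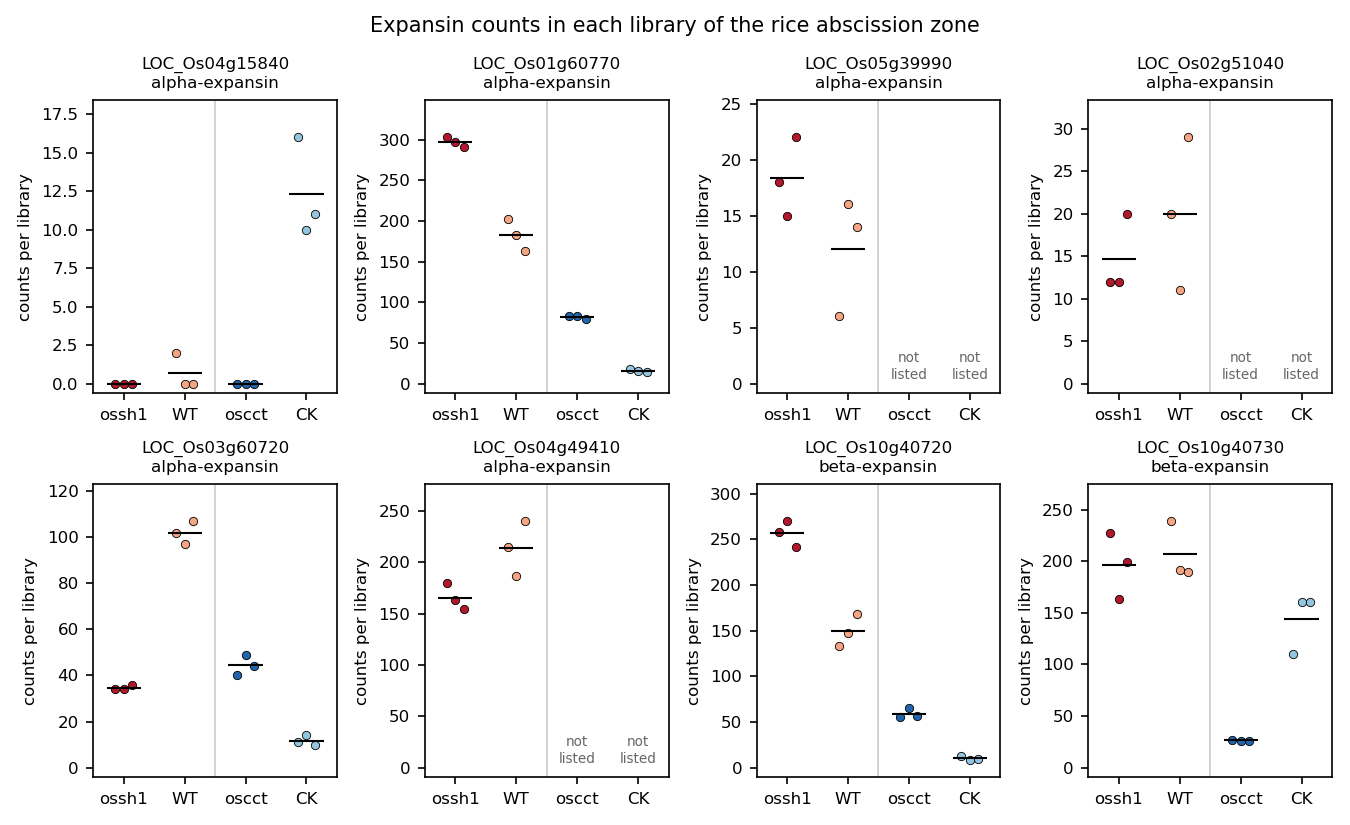
Counts per library (vertical axes, linear, different in each panel) of the 8 expansins that were tested in ossh1 or listed for oscct. Points are the 3 libraries of ossh1, WT, oscct and CK, lines are group means, and the tables left and right of the grey line have different depths. LOC_Os01g60770 and LOC_Os10g40720 are higher in both mutants, LOC_Os03g60720 is lower in ossh1 and higher in oscct, and LOC_Os10g40730 is lower in oscct.

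Across both families, the change in ossh1 was mixed in direction. Of the 38 genes, 3 were at 0 in all libraries and 9 were below the filter on low counts, leaving 26 tested. Among these, 17 were called at the edgeR threshold of 0.05, with 9 higher and 8 lower in ossh1, against 58.3% of all 22669 genes tested, 29.2% higher and 29.1% lower. The count is thus near the background of a comparison in which most genes differ. With scaling by library totals alone, the calls over all genes were 5257 higher and 8364 lower instead of 6629 higher and 6591 lower. Expansin and XTH calls were then 9 higher and 10 lower. Changes of at least 2-fold numbered 5 higher and 3 lower, against 7.98% higher and 4.96% lower of all genes, or 12.9% in either direction. The median log2 fold change of the 26 genes was 0.16, against -0.01 over all genes tested, and the median size of the change was 0.79, against 0.33. Of the 26 genes, 6 reached the count filter in 1 group alone, so these medians and counts are a description and no support for a difference from other genes. Groups did not overlap in 19 of the 26, against 62.3% of all genes tested.

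Of the 19 XTH genes tested in ossh1, 14 were called, 7 higher and 7 lower, and 5 were not past the threshold. Over all genes tested, 58.3% were called. LOC_Os02g46910 rose in ossh1, with 254, 345 and 294 counts, against 128, 138 and 114 in WT. That is a log2 fold change of 1.5 (SE 0.13, edgeR adjusted p = 3.33e-13), and the groups were far apart. LOC_Os11g33270 had 112, 90 and 64 counts in ossh1 and 28, 52 and 46 in WT, a log2 fold change of 1.35 (SE 0.24, edgeR adjusted p = 6.10e-06). Its 3 ossh1 libraries spread widely but stayed above those of WT.

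LOC_Os10g02840 had 49, 58 and 58 counts in ossh1, against 28, 22 and 33 in WT, a log2 fold change of 1.26 (SE 0.27, edgeR adjusted p = 1.00e-04). LOC_Os03g01800 had 32, 41 and 30 counts in ossh1 and 9, 19 and 7 in WT, a log2 fold change of 1.81 (SE 0.39, edgeR adjusted p = 0.000104). Both genes were higher in every ossh1 library. Only ossh1 carried LOC_Os03g01800 past the count filter in all its libraries, so it could be tested only because it was higher there. The size of its rise is also less certain than that of the other rises.

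The largest XTH falls in ossh1 concerned genes with few reads. LOC_Os04g53950 had 10, 4 and 5 counts in ossh1, against 35, 32 and 36 in WT, a log2 fold change of -2.15 (SE 0.43, edgeR adjusted p = 3.58e-05). LOC_Os03g13570 had 4 counts in each ossh1 library, against 20, 15 and 22 in WT, a log2 fold change of -1.95 (SE 0.52, edgeR adjusted p = 0.00147). In both cases WT alone carried the gene past the count filter, so it could be tested only because it was higher there.

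The XTH genes with the most reads fell by less in ossh1; reads were not divided by transcript length, so they do not rank these genes by level. LOC_Os08g13920 had 1785, 1676 and 1768 counts in ossh1, against 2667, 2779 and 2954 in WT, a log2 fold change of -0.41 (SE 0.04, edgeR adjusted p = 1.26e-10). LOC_Os06g48200 had 763, 731 and 782 counts in ossh1 and 1296, 1321 and 1378 in WT, a log2 fold change of -0.54 (SE 0.06, edgeR adjusted p = 8.32e-11). For these genes, SEs were small because the counts are high, and the groups stood clear of each other.

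LOC_Os04g51460 had 1396, 1413 and 1322 counts in ossh1, against 1761, 1865 and 1920 in WT, a log2 fold change of -0.15 (SE 0.05, edgeR adjusted p = 0.0111). LOC_Os06g48160 had 667, 566 and 714 counts in ossh1, against 866, 879 and 878 in WT, a log2 fold change of -0.16 (SE 0.07, edgeR adjusted p = 0.0441). After scaling, the ossh1 values of both genes lay just below those of WT. The calls on these small falls lie close to the threshold. Without WT replicate 2 the adjusted p in edgeR was 0.0699 for LOC_Os04g51460 and 0.137 for LOC_Os06g48160, at log2 fold changes of -0.13 and -0.14. Without ossh1 replicate 3 that of LOC_Os04g51460 was 0.109 at a log2 fold change of -0.09, and without ossh1 replicate 2 that of LOC_Os06g48160 was 0.319 at -0.09. For LOC_Os06g48160 the adjusted p in edgeR also missed the threshold without WT replicate 1 (0.0795) or WT replicate 3 (0.0537), while the log2 fold change was -0.17 and -0.18. With RLE scaling, without the filter on low counts and in DESeq2 it was -0.15, -0.16 and -0.15, with adjusted p = 0.0537, 0.0574 and 0.0922, so the size stayed and the threshold was missed. Scaling by library totals gave larger falls, -0.25 for LOC_Os04g51460 and -0.26 for LOC_Os06g48160.

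LOC_Os06g48180 rose in ossh1, with 566, 444 and 455 counts, against 383, 353 and 446 in WT, a log2 fold change of 0.58 (SE 0.09, edgeR adjusted p = 1.22e-06). Its scaled values did not overlap. The other XTH calls were LOC_Os08g14200 and LOC_Os03g63760, higher by 0.42 and 0.82 on the log2 scale, and LOC_Os07g34580, at -0.70. The groups overlapped for LOC_Os03g63760, and its call was lost without WT replicate 2 (edgeR adjusted p = 0.0834) or without ossh1 replicate 3 (edgeR adjusted p = 0.0692).

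Of the 5 XTH genes tested and not past the threshold, 3 became calls when 1 library was left out. LOC_Os06g22919, at 0.89 on the log2 scale (SE 0.44), passed without WT replicate 1 (edgeR adjusted p = 0.0445) and was at 0.63 without WT replicate 3 (edgeR adjusted p = 0.286). It reached the count filter through ossh1 alone, the group where it was higher. LOC_Os10g39840 had 20, 26 and 13 counts in ossh1, against 34, 54 and 32 in WT. This change, at -0.75 (SE 0.34), passed without ossh1 replicate 2 (edgeR adjusted p = 0.0254) or without WT replicate 3 (edgeR adjusted p = 0.0373). Without WT replicate 2 it was at -0.45 (edgeR adjusted p = 0.345) and without ossh1 replicate 3 at -0.50 (edgeR adjusted p = 0.244). LOC_Os10g02770, at -0.88 (SE 0.40), passed without ossh1 replicate 3 (edgeR adjusted p = 0.0246) and was at -0.56 without ossh1 replicate 1 (edgeR adjusted p = 0.277). This gene reached the count filter through WT alone, the group where it was higher. With scaling by library totals, LOC_Os10g39840 and LOC_Os10g02770 passed with all libraries kept (edgeR adjusted p = 0.0293 and 0.0338). LOC_Os10g42670 had 398, 375 and 352 counts in ossh1, against 430, 356 and 466 in WT. The changes of LOC_Os07g29750 and LOC_Os10g42670 were 0.34 (SE 0.38) and 0.12 (SE 0.09), with overlapping groups.

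Summed over all 28 XTH genes, reads came to 234 ± 10.1 CPM (counts scaled by effective library size) in ossh1, against 259 ± 6.25 in WT (SD, n = 3 each). The ossh1 libraries lay between 223 and 243 and the WT libraries between 251 and 263, without overlap. Alpha-expansins summed to 20.2 ± 1.10 CPM in ossh1 and 16.7 ± 0.737 in WT, and beta-expansins to 17.1 ± 1.39 in ossh1 and 11.1 ± 0.477 in WT (SD, n = 3 each). The sums of both expansin classes were therefore higher in every ossh1 library than in any WT library, and that of XTH lower. Such sums are carried by the few genes with most reads.

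**Figure D2:**
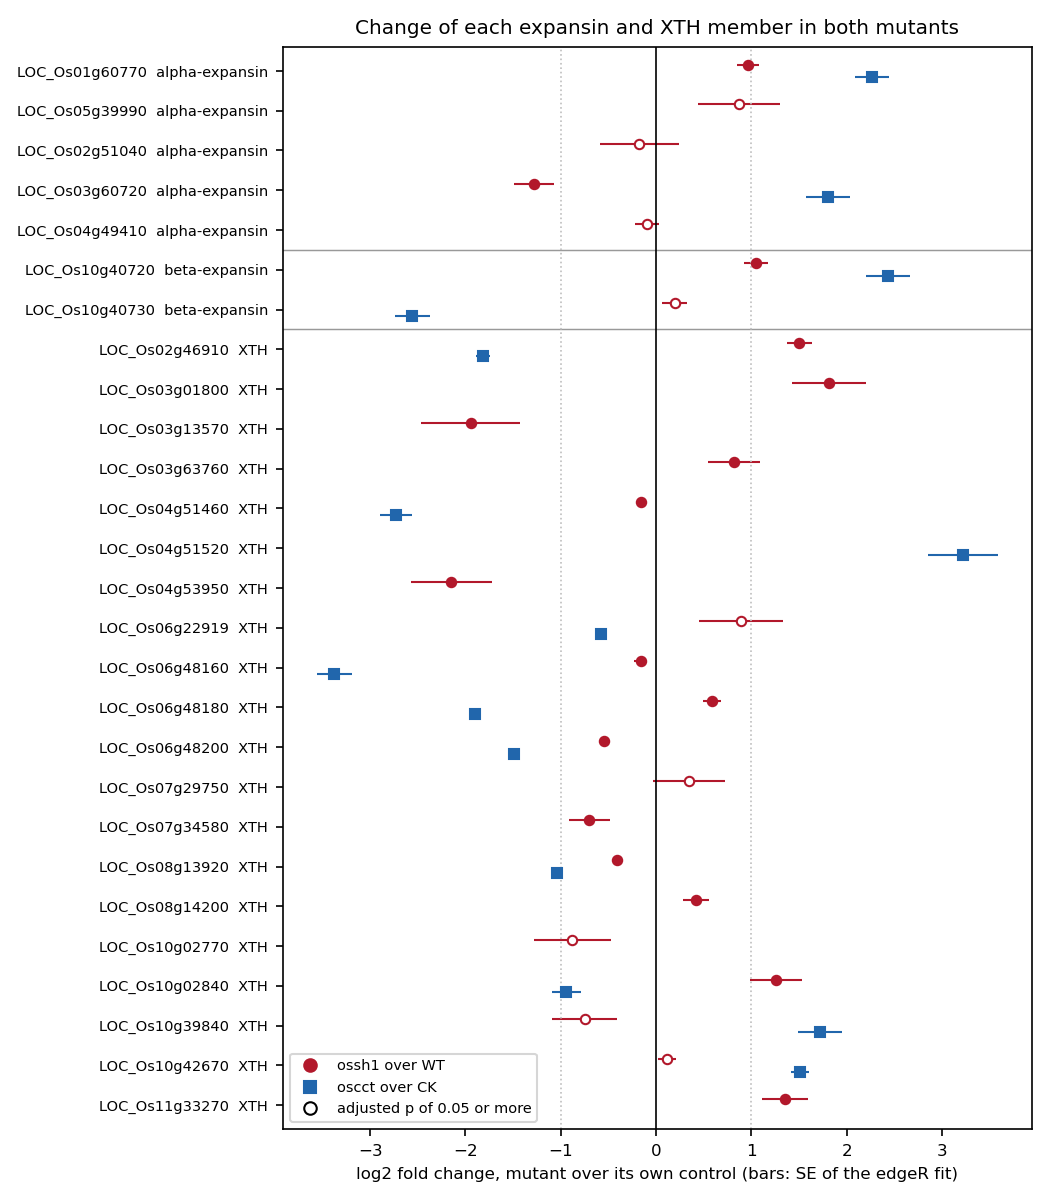
Log2 fold change (horizontal axis) of the 27 genes tested in at least 1 comparison, with SE as bars, for ossh1 over WT (red circles) and oscct over CK (blue squares); open symbols did not pass an adjusted p of 0.05 and dotted lines mark 2-fold. In ossh1 the XTH changes lie on both sides of 0, while 8 of 11 listed XTH genes lie left of 0 in oscct.

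In oscct, 8 of the 11 listed XTH genes were lower, among them 3 neighbours on chromosome 6. Of the 38 genes, 16 were listed and 15 tested, and all 15 passed the threshold, 6 higher and 9 lower, against 48.9% higher and 50.3% lower of all IDs tested. That all passed carries no information, since rows without a difference were not listed. Changes of at least 2-fold numbered 6 higher and 7 lower, against 14.3% higher and 12.6% lower of all IDs, or 26.9% in either direction. The median log2 fold change of the 15 genes was -0.94, against -0.09 over all IDs tested, and the median size 1.82, against 0.60. Scaling by listed totals instead moved the median of all IDs to 0.08 and left 6 genes higher and 9 lower. Within this table, 3 of the 15, LOC_Os03g60720, LOC_Os10g40720 and LOC_Os04g51520, reached the count filter through oscct alone, so the counts and medians support no difference from other genes.

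LOC_Os06g48160 had 10, 11 and 12 counts in oscct, against 102, 102 and 117 in CK, a log2 fold change of -3.38 (SE 0.18). LOC_Os06g48180 had 367, 398 and 383 counts in oscct and 1374, 1307 and 1294 in CK, a log2 fold change of -1.90 (SE 0.05). LOC_Os06g48200 had 345, 435 and 383 counts in oscct, against 1019, 991 and 1016 in CK, a log2 fold change of -1.49 (SE 0.06). All 3 XTH neighbours were thus lower in every oscct library, by 10.4-fold, 3.74-fold and 2.81-fold. Groups did not overlap in 98.3% of all IDs tested for oscct, so lack of overlap does not set single genes apart. The fourth member of this neighbour group, LOC_Os06g48170, had 1 count in 1 ossh1 library and 0 in the other libraries of ossh1 and WT. It was not listed for oscct.

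Further XTH falls in oscct lay on other chromosomes. LOC_Os04g51460 had 17, 19 and 24 counts in oscct, against 129, 132 and 110 in CK, a log2 fold change of -2.73 (SE 0.17). LOC_Os02g46910 had 154, 154 and 169 counts in oscct, against 512, 531 and 516 in CK, a log2 fold change of -1.82 (SE 0.07). LOC_Os08g13920 had 1190, 1100 and 1158 counts in oscct and 2101, 2131 and 2311 in CK, a log2 fold change of -1.03 (SE 0.04). In each of these the oscct libraries were well below the CK libraries. LOC_Os10g02840 had 84, 77 and 52 counts in oscct, against 139, 118 and 123 in CK, a log2 fold change of -0.94 (SE 0.15). Its oscct libraries spread more than those of CK and lay below them. LOC_Os06g22919 also fell by less than 2-fold, with a log2 fold change of -0.58 (SE 0.05).

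Of the listed XTH genes, 3 were higher in oscct, by at least 2-fold each. LOC_Os10g42670 had 265, 267 and 272 counts in oscct, against 97, 87 and 77 in CK, a log2 fold change of 1.51 (SE 0.10). LOC_Os10g39840 had 52, 53 and 67 counts in oscct, against 12, 14 and 22 in CK, a log2 fold change of 1.72 (SE 0.23). LOC_Os04g51520 had 24, 35 and 35 counts in oscct, against 4, 3 and 2 in CK, a log2 fold change of 3.22 (SE 0.37). No library of oscct overlapped with CK in any of them, as in 98.3% of all IDs tested for oscct. For LOC_Os04g51520, which reached the count filter through oscct alone, the CK counts were too few to fix the size well.

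LOC_Os02g46910 and LOC_Os06g48180 were each listed in 2 rows of the oscct table, whose values were summed. The first row of LOC_Os02g46910 held 75.6% of its counts in oscct and 79.3% in CK, and that of LOC_Os06g48180 held 92.2% in oscct and 93.0% in CK. Both rows of both genes were lower in oscct, at log2 ratios of the summed counts of -1.78 and -1.47 for LOC_Os02g46910 and of -1.81 and -1.62 for LOC_Os06g48180. The rows of each gene added up to whole numbers in every library, with a largest deviation of 0 after rounding to 6 digits.

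Summed over the 11 listed XTH genes, reads came to 273 ± 5.52 CPM in oscct, on the scale of the listed counts, against 568 ± 7.58 in CK (SD, n = 3 each). The 3 listed alpha-expansins summed to 9.42 ± 0.414 in oscct and 3.19 ± 0.410 in CK, and the 2 listed beta-expansins to 6.36 ± 0.397 in oscct and 12.4 ± 2.22 in CK (SD, n = 3 each). The direction of the beta-expansin sum is that of LOC_Os10g40730. These sums omit the genes not listed.

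**Figure D3:**
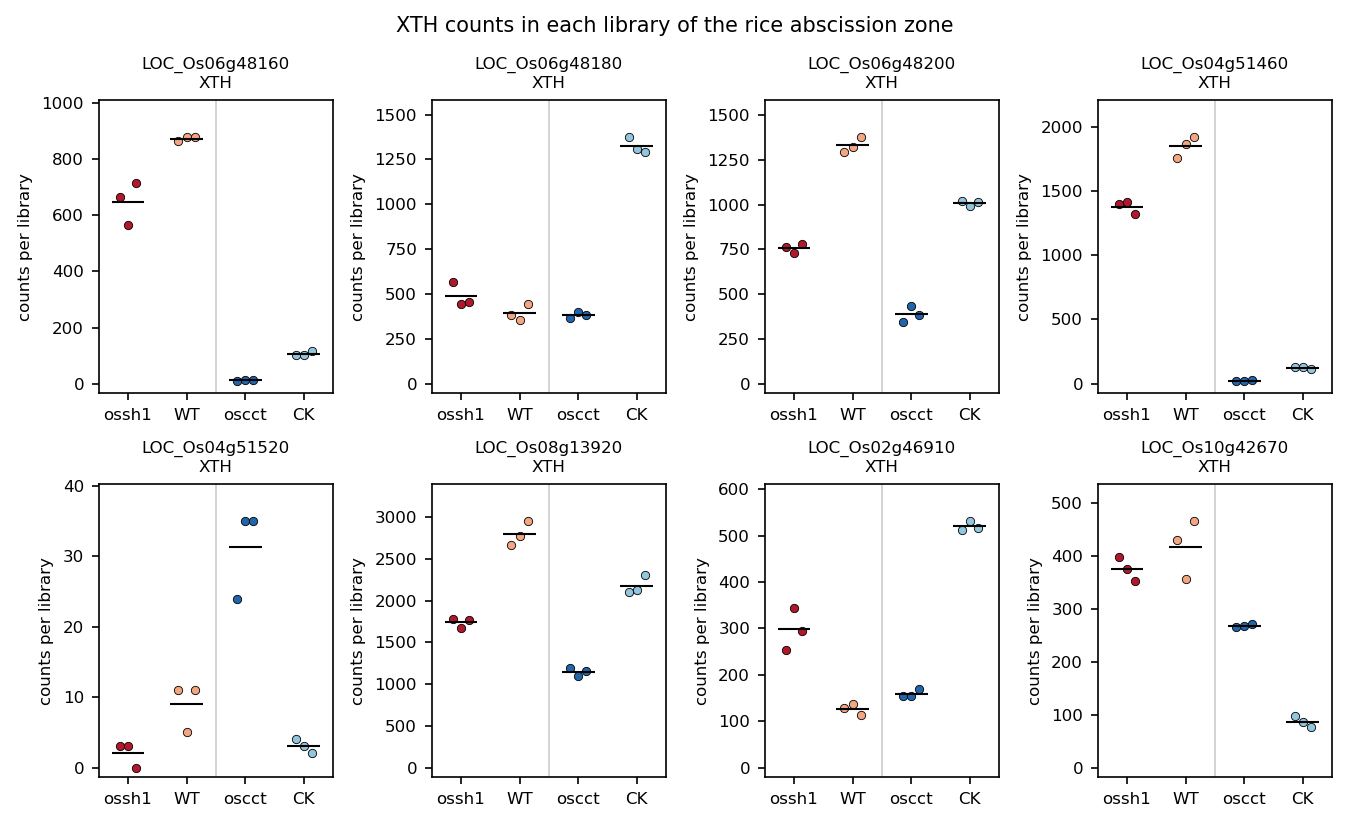
Counts per library (vertical axes, linear, different in each panel) of 8 XTH genes that changed 2-fold or more in oscct, for ossh1, WT, oscct and CK, with group means as lines. The 3 chromosome 6 neighbours, LOC_Os04g51460, LOC_Os08g13920 and LOC_Os02g46910 lie below CK in every oscct library, while LOC_Os02g46910 is higher in ossh1 than in WT.

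Many of these genes lie in neighbour groups, taken here as genes of the list whose serial numbers in the locus ID are at most 300 apart on 1 chromosome, since these numbers follow gene order by the naming convention. There were 6 such groups with 18 of the 38 genes. In ossh1, the chromosome 6 group had 1 gene higher and 2 lower, and on chromosome 8 LOC_Os08g14200 was higher and LOC_Os08g13920 lower. On chromosome 4, LOC_Os04g51460 fell in oscct while LOC_Os04g51520 rose, and LOC_Os04g51450 and LOC_Os04g51510 had at most 2 counts in any library of the ossh1 table. The XTH pair LOC_Os02g17880 and LOC_Os02g17900 was at 0 in all libraries of that table, as was LOC_Os08g13980, while LOC_Os02g57770 and LOC_Os09g28460 had at most 4 and 1 counts. Among groups with at least 2 calls in 1 comparison, the calls shared a direction on chromosome 6 in oscct, and were mixed on chromosomes 6 and 8 in ossh1 and on chromosomes 4 and 10 in oscct.

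Of the 38 genes, 22 were not listed for oscct, and 10 of these were also too low to test in ossh1. Among the 26 genes tested in ossh1, 14 (53.8%) were listed for oscct, against 47.8% of all 22669 tested genes. Among the 17 genes called in ossh1, 10 (58.8%) were listed, and all 10 passed the threshold in oscct. Over all genes, 7301 of the 13220 called in ossh1 passed in oscct. The 7 called genes not listed were LOC_Os03g01800, LOC_Os03g13570, LOC_Os03g63760, LOC_Os04g53950, LOC_Os07g34580, LOC_Os08g14200 and LOC_Os11g33270.

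Both mutants were then compared over the listed genes; they share no control library. Of the 10 genes past the threshold in both, 2 rose in both, the expansins LOC_Os01g60770 and LOC_Os10g40720, of which LOC_Os10g40720 met the oscct count filter through oscct alone. A further 4 fell in both, the XTH genes LOC_Os04g51460, LOC_Os06g48160, LOC_Os06g48200 and LOC_Os08g13920, each by more in oscct, where listing required a difference. In ossh1 the falls of LOC_Os04g51460 and LOC_Os06g48160 were small, and their calls were lost in 2 and 7 of 13 alternatives. The other 4 went in opposite directions. LOC_Os02g46910, LOC_Os06g48180 and LOC_Os10g02840, all XTH, rose in ossh1 and fell in oscct, and the alpha-expansin LOC_Os03g60720 did the reverse. That expansin too met the oscct count filter through oscct alone. Over all IDs past the threshold in both comparisons, 7301 in number, 37.8% shared a direction, 1306 higher in both and 1456 lower in both. With 10 genes, the 6 that shared a direction are a description and were not tested against that share.

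**Figure D4:**
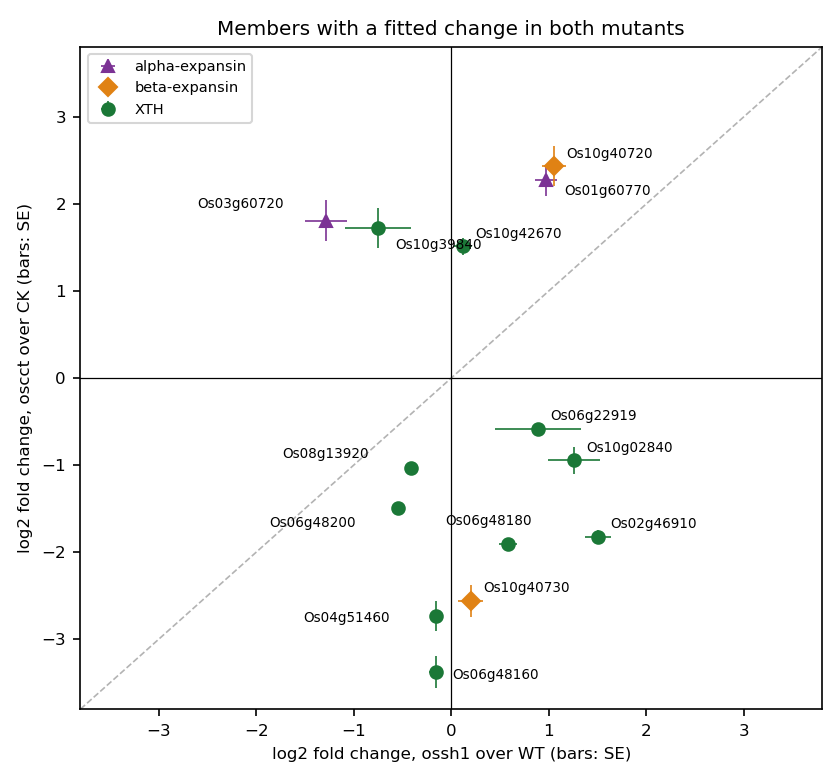
Log2 fold change in oscct over CK (vertical axis) against that in ossh1 over WT (horizontal axis) for the 14 genes with a fitted change in both, with SE as bars; the dashed line marks equal changes. Points spread from -3.38 to 2.44 on the oscct axis and from -1.28 to 1.5 on the ossh1 axis, and LOC_Os01g60770 and LOC_Os10g40720 lie together at the upper right.

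The difference between the changes was tested in 1 model of all 12 libraries. Of 16 listed genes, 15 responded unequally in oscct and ossh1 at the same edgeR threshold, against 80.3% of the 11654 IDs tested. The change in oscct was above that in ossh1 for 6 genes and below it for 9, against 40.8% and 39.5% of all IDs. The highest adjusted p among the 15 was 0.000238 (edgeR), but listing required a difference in oscct, so these p-values have no usual meaning. LOC_Os02g46910 had the most negative difference, -3.32 on the log2 scale (SE 0.16), with a change of -1.82 in oscct and 1.5 in ossh1. LOC_Os03g60720 differed by 3.09 (SE 0.30), with 1.80 in oscct and -1.28 in ossh1. The smallest difference was that of LOC_Os08g13920, at -0.62 (SE 0.06), or -0.36 with scaling by table totals. LOC_Os04g51520 had 3, 3 and 0 counts in ossh1, against 11, 5 and 11 in WT, below the filter of that table, and its difference of 5.06 (SE 0.80) rests on low counts. For LOC_Os04g15840, with ossh1 and oscct both at 0, edgeR gave no call (adjusted p = 1) and its fitted difference has no usable size. In limma-voom this gene passed as well (log2 difference -4.26, adjusted p = 0.000275), which made the count 16 there, 6 above and 10 below; a fitted value against groups at 0 depends on the count added to each library.

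Finally, the 4 group means were set side by side for the 16 listed genes, as CPM computed over the 11688 IDs shared by both tables. The tables were made and normalised separately, so these levels carry no test, and counting, line and growing place cannot be told apart between them. LOC_Os06g22919, an XTH gene, stood apart. It was at 89.2 in oscct and 119 in CK, and at 0.835 in ossh1 and 0.487 in WT. On the log2 scale with 0.5 added, CK was 6.92 above WT, a distance from the median that 98.7% of shared IDs did not exceed. LOC_Os04g51460 differed the other way, at 1.58 in oscct, 9.40 in CK, 67.9 in ossh1 and 81.5 in WT. The log2 ratio of CK over WT on that scale was -3.05.

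For 8 of the 16 genes the controls differed by more than 2 log2 units, against 29.5% of the shared IDs, and for 1 by more than 4, against 8.15%. The log2 ratio of CK over WT had a median of 0.16 and an SD of 2.24 over the shared IDs. LOC_Os08g13920 was at 90.8 in oscct, 165.5 in CK, 85.9 in ossh1 and 123 in WT. LOC_Os10g42670 was at 21.2 in oscct and 6.61 in CK, and at 18.5 in ossh1 and 18.4 in WT, lowest in CK. Its log2 ratio of CK over WT with 0.5 added was -1.41, a distance from the median that 60.5% of shared IDs did not exceed.

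**Figure D5:**
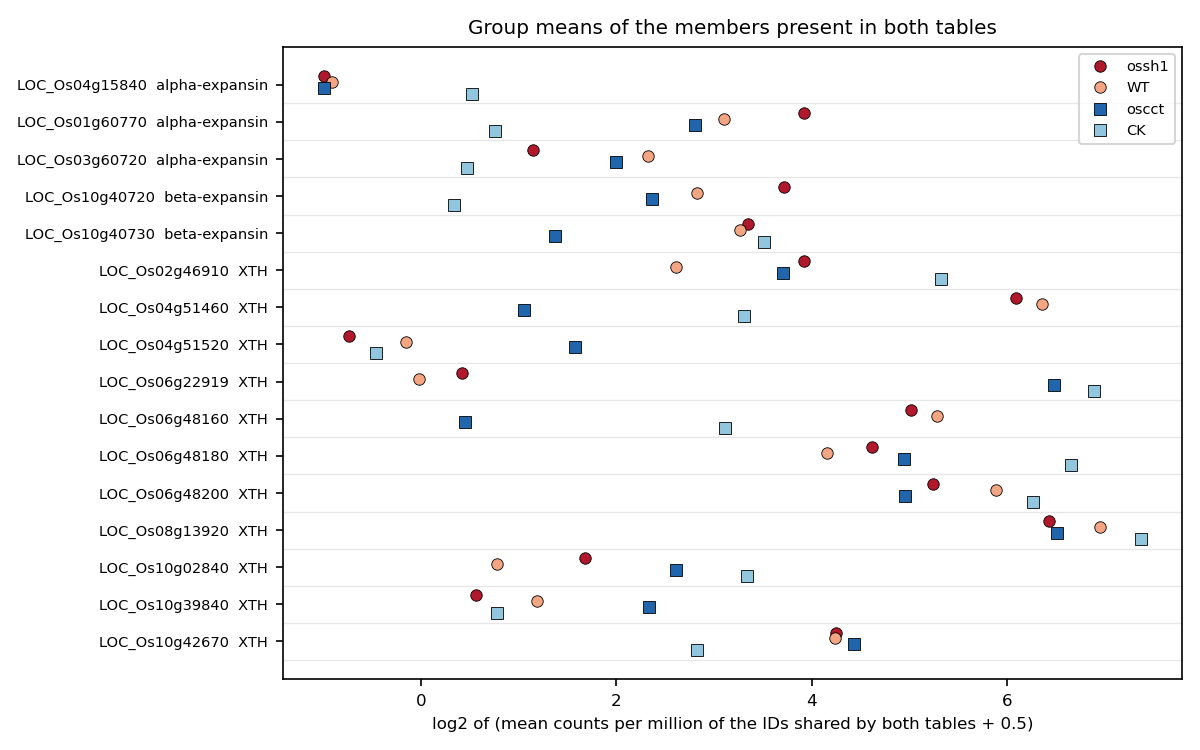
Mean level of the 16 genes present in both tables (horizontal axis, log2 of CPM over the shared IDs plus 0.5) in ossh1, WT, oscct and CK. LOC_Os06g22919 is far higher in oscct and CK than in ossh1 and WT, and LOC_Os04g51460 is lower there.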

How the data were processed

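Sequencing used BGISEQ, per the labels. The submitters' processing notes name the build IRGSP-1.0 and the tools DESeq2, HISAT2 and RSEM 1.3.1, without role or order. The authors deposited read counts, whole numbers, for ossh1 and WT, and estimated counts for oscct and CK (58.5% of values whole), per the file headers and values. The step that left rows out of the second table, and use of strand, are not given in the sources used here. Rows of 1 ID were summed and rounded to whole numbers. No row lacked an ID.

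Each table was fitted whole with R 4.3.3 and edgeR 4.0.16, using TMM scaling after filterByExpr and glmQLFTest on a glmQLFit model without replicate block. P-values were adjusted by Benjamini-Hochberg, with a threshold of 0.05. SE is the size of the log2 fold change over the root of F. The difference used the IDs of both tables, with scaling factors from each full table. Alternatives were the replicate block, RLE, table totals, other filters, limma-voom (limma 3.58.1), DESeq2 1.42.0, leaving out single libraries and the most abundant row of an ID. Scripts were tested on simulated data. Replicate pairs differed beyond sampling noise (chi-square over its degrees of freedom between 1.70 and 4.29). Per the labels, replicates are biological, each of 5 plants. Figures used matplotlib 3.10.9.

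The genes and classes were chosen with earlier results of these data known. Counts in every library are given for expansins and for XTH genes with an adjusted p under 0.05 and a change of at least 2-fold in either mutant, and for the XTH genes with most reads; a few others were added after their values were seen. No sequences are printed.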

Additional observations from a re-analysis of the deposited data

Results flagged for a closer look

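For 15 of the 16 listed genes, the test of the difference itself found a change in oscct that differed from that in ossh1 (edgeR, 1 model of 12 libraries). The values below are the log2 fold change in oscct minus that in ossh1. Among expansins the difference was 1.3 for LOC_Os01g60770, 3.09 for LOC_Os03g60720, 1.39 for LOC_Os10g40720 and -2.76 for LOC_Os10g40730. Among XTH genes lower in oscct it was -3.32 for LOC_Os02g46910, -2.58 for LOC_Os04g51460, -1.47 for LOC_Os06g22919 and -2.20 for LOC_Os10g02840. The chromosome 6 neighbours gave -3.22 for LOC_Os06g48160, -2.48 for LOC_Os06g48180 and -0.95 for LOC_Os06g48200, and LOC_Os08g13920 gave -0.62. Among XTH genes higher in oscct it was 5.06 for LOC_Os04g51520, 2.47 for LOC_Os10g39840 and 1.39 for LOC_Os10g42670. All of these IDs were listed for a difference between oscct and CK, so p-values of this test have no usual meaning. Of all IDs tested, 80.3% passed the same test. The difference of LOC_Os04g51520 rests on low counts in ossh1, WT and CK.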

How the results depend on the processing

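Counts of expansin and XTH calls moved by less than 1.5 times under every alternative run. With the replicate block they were 17 in ossh1, 15 in oscct and 15 for the difference, as without it. Deviations of same-numbered mutant and control libraries correlated between -0.06 and 0.03. With 3 libraries per group this cannot show whether a number pairs the samples. Leaving out 1 library gave 14 to 18 calls in ossh1, 15 to 16 in oscct and 15 for the difference, which was 16 in limma-voom through LOC_Os04g15840. Over all features it gave 12250 to 12750 calls in ossh1 and 11336 to 11390 in oscct. With a filter at a mean of at least 1 CPM, calls were 15 in ossh1 and 14 for the difference. LOC_Os03g01800, LOC_Os03g13570 and LOC_Os04g53950, each changed by more than 2-fold in ossh1, were then not tested there. LOC_Os04g51520 was not tested for the difference. No called gene changed direction. Over all alternatives and the 26 expansin and XTH genes tested in ossh1, a call was lost in 11 cases and gained in 8. Of the losses, 7 concerned LOC_Os06g48160 (adjusted p up to 0.319 in edgeR). Genes that an alternative left untested were not counted as lost. The cause was not tested. Genes under about 0.339 CPM in ossh1 and WT could not be tested, and absence from the oscct table sets no limit on a change.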
